A study of Mus musculus with 6 samples.

Results

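The genes described here encode the canonical, replication-dependent histones of the mouse, and their mRNA was read in testis tissue from C57BL/6J mice at an age of 8 weeks. They are the protein-coding genes whose GENCODE M21 symbols begin with Hist1h, Hist2h, Hist3h or Hist4, apart from the spermatocyte linker histone gene Hist1h1t. The rule named 66 annotated genes, of which 64 were in the count tables of 51826 genes. Hist1h2bm and Hist1h2bh were not analysed here. The neighbouring genes Hist1h2aa and Hist1h2ba, which encode testis variants, are among the 64. The groups were 3 wild-type samples and 3 KIFC1 knockout samples, which the labels give as the same strain, age and tissue. KIFC1 is a kinesin motor that moves towards microtubule minus ends. The labels name no allele or deleted exon for the knockout, and leave it unsaid whether each sample is a separate animal. Every p-value below thus reflects sample-to-sample spread that may be technical.

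Nucleosomes are built from the core histones H2A, H2B, H3 and H4, and the linker histone H1 binds the DNA between them. Canonical histone genes lie in clusters, have as a rule no introns, and are transcribed mainly in S phase, when new DNA has to be packaged. Their mRNAs end in a short stem-loop in place of a poly(A) tail, which the stem-loop binding protein SLBP recognises, and libraries that select poly(A) RNA read them poorly. In the testis, dividing spermatogonia and preleptotene spermatocytes replicate their DNA. Later germ cells exchange canonical histones for testis variants and then for protamines.

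The stem-loop is the feature that sets these transcripts apart from most mRNAs, so its sequence is shown for the genes whose values follow. It was searched as GGNNNTT, then any 3 bases, then ANNNCC, with 6-base arms that pair with each other, on the transcript strand, in up to 200 annotated bases after the stop codon. Of the 64 genes, 43 held it, beginning 22 to 59 bases after the stop codon with a median of 33. Among 17769 other protein-coding genes with 200 annotated bases there, 17 held it, or 0.0957%. A further 13 of the 64 had no annotated base after the stop codon, so that nothing could be searched. The sequences below are from GENCODE M21 transcripts on GRCm38, the assembly that mm10 names, with the 16-base stem-loop in capitals and 5 bases on each side.
Hist2h2aa1: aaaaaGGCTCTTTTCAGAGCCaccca
Hist2h2ac: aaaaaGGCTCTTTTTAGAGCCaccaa
Hist1h2bp: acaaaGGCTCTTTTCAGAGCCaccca
Hist1h3a: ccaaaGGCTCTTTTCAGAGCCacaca
Hist1h1c: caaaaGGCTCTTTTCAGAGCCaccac
Hist1h4a: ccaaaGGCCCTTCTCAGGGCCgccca
Hist1h4b: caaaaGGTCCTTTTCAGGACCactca
Hist1h4c: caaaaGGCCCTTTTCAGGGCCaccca
Hist1h4h: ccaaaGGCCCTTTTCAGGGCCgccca
The form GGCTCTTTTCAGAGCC occurred in 26 of the 66 annotated genes, from classes H1, H2A, H2B and H3. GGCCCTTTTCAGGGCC occurred in 7 genes, all of class H4.

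The knockout label was checked first on Kifc1 itself (chr17:33875659-33890661, minus strand), which held 529, 634 and 448 counts in the wild-type libraries and 12, 26 and 9 in the knockout libraries. The libraries held 29274603 to 38703606 counts. A floor of 3 counts, which covers counting error only, equals 0.0763 to 0.0986 counts per 1000000 counts (CPM). Mitochondrial genes took 0.661% to 0.935% of counts in wild type and 1.54% to 5.74% in knockout. The rank correlation across genes between GC content and a library's deviation from the mean of all libraries was 0.244 to 0.527 in wild type and -0.667 to -0.120 in knockout, with knockout sample 2 at the lowest value. Genes of high GC content were thus read relatively higher in the wild-type libraries, and the median GC content was 58.6% over the 64 histone genes and 49.0% over all tested genes. The fold changes of the histone genes described at length below are therefore given also after the trend with GC content and exon length was taken out of each library, named below as the value with the offsets.

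Canonical histone mRNA was scarce in these libraries. Counts over all 64 genes summed to between 5143 and 9360 per library. The median gene had a mean of 0.281 CPM, 15 genes had a mean of at least 1 CPM, and 4 had at least 10 CPM. Every gene had a count in at least 1 sample and 52 had a count in all 6. Summed over the 64 genes, the wild-type libraries held 200, 238 and 194 CPM and the knockout libraries 176, 146 and 222 CPM, with overlap. The log2 ratio of the group means was -0.22, and 0.10 with the offsets. At the other end, 5 genes had at most 3 counts in every library. These are values of bulk tissue, in which fewer cells of a type and less RNA per cell cannot be told apart.

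Per kilobase of exon, Hist2h2aa1 (H2A) had the highest level, at 138 CPM per kilobase in wild type and 129 in knockout. Hist1h2bp (H2B) was next at 51.3 and 28.6, followed by Hist1h4a (H4) at 31.7 and 24.4. Hist1h3a (H3) stood at 9.99 and 5.85, Hist2h2be (H2B) at 7.05 and 7.03, Hist2h2ac (H2A) at 5.86 and 3.19, and Hist1h2bc (H2B) at 5.01 and 9.71. In wild type the libraries of the first 3 genes did not overlap, while those of Hist1h3a and Hist2h2be did. In knockout those of Hist1h2bp and Hist1h4a overlapped as well.

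No canonical histone gene was called between knockout and wild type. In edgeR's quasi-likelihood test, with Benjamini-Hochberg adjustment over 21518 genes, 0 of the 32 histone genes that passed the filter on low counts had an adjusted p under 0.05, where 8.23% of all tested genes did. An unadjusted p under 0.05 was reached by 7 of the 32, 6 of them lower in knockout, where 27.1% of all tested genes reached it. With the offsets 0 were called, against 0.483% of all tested genes. DESeq2's Wald test called 3, Hist1h4h and Hist1h2bp lower and Hist1h2bc higher, against a background of 16.9%, and gave no adjusted p for 40 of the 64 genes. In edgeR, a stricter filter of 1 CPM called Hist1h4h lower and Hist1h2bc higher, against 11.7% of all genes it tested. Without knockout sample 2, edgeR called Hist1h2bc higher and Hist1h2bp and Hist2h2ab lower, against 14.3% of all genes.

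The log2 fold change (knockout over wild type) lay below 0 for 26 of the 32, where 50.7% of all tested genes lay below 0. The median was -0.44, beside -0.0088 over all tested genes. With the offsets for GC content and exon length, the median of the 32 was -0.09, with 20 below 0, beside -0.03 over all tested genes. Of the 32, 8 reached 10 counts in every wild-type library but not in every knockout library, and 2 the reverse, so that the filter itself admitted more genes that were higher in wild type. The median and the counts of the 32 are given as a description only. Without any filter, the median over all 64 genes was -0.37, beside 0.01 over the 34675 genes with a count. In 9 of the 32 every knockout library was below every wild-type library, and in 1, Hist1h2bc, the order was the opposite; 18.1% and 14.6% of all tested genes separated in these ways.

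**Figure D1:**
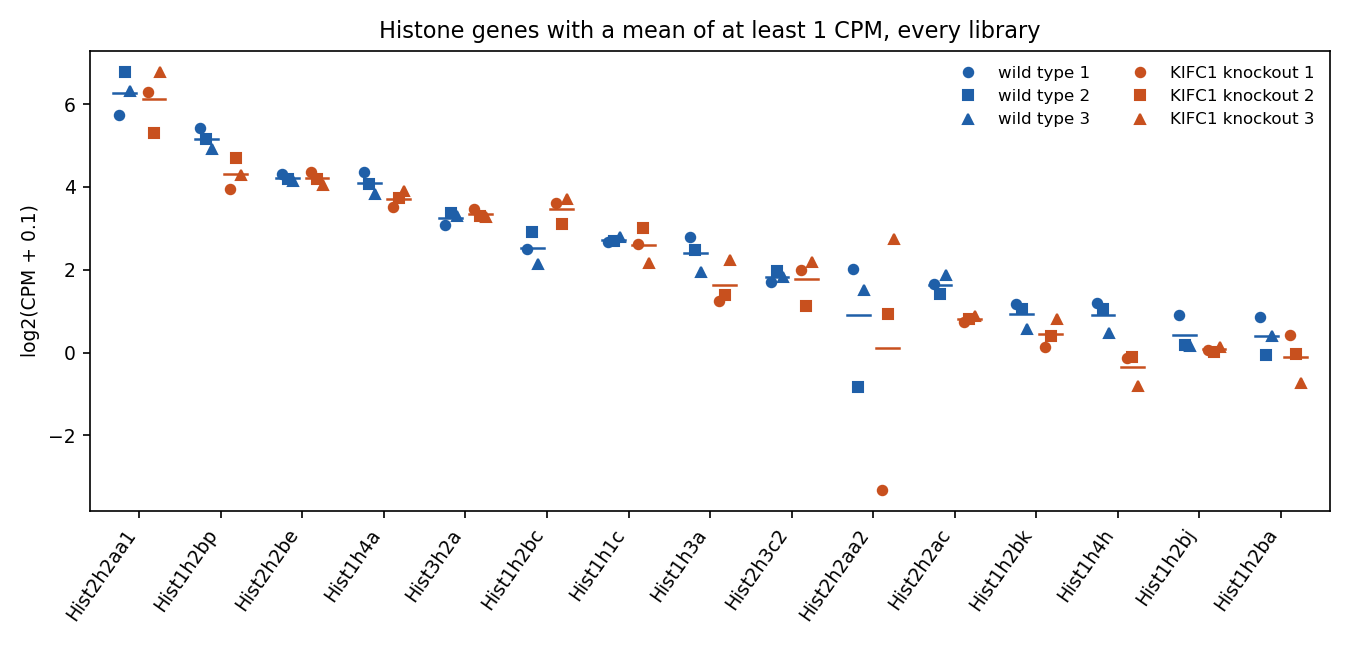
All 15 histone genes whose mean reached 1 CPM, ordered by that mean, with log2(CPM + 0.1) on the vertical axis. Each point is a library, blue for wild type and orange for knockout, and bars are group means on that scale. The groups do not overlap for Hist1h2bp, Hist1h2bc, Hist2h2ac, Hist1h4h and Hist1h2bj, and Hist2h2aa2 spreads from 0 CPM to 6.54 CPM within the knockout group.

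Among the canonical linker histone genes, a single gene held most of the counts. Hist1h1c, which encodes a somatic H1 subtype, had 6.31, 6.36 and 6.77 CPM in wild type and 6.004, 7.996 and 4.35 CPM in knockout. The knockout libraries lay on both sides of the wild-type ones. Its log2 fold change was -0.08 ± 0.25 (SE, n = 3 per group, edgeR adjusted p = 0.864), and 0.25 with the offsets. Hist1h1a, the other tested H1 gene, was read at 5 to 21 counts per library. The 5 H1 genes summed to 6.91 ± 0.254 CPM in the wild-type group and 6.81 ± 1.99 CPM in the knockout group (SD, n = 3).

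Among the H2A genes, a single locus dominated. Hist2h2aa1 (chr3:96245497-96246082, plus strand, single exon) had 53.3, 110 and 79.6 CPM in wild type and 77.8, 39.2 and 110 CPM in knockout. The groups overlapped fully, with knockout sample 2 lowest and wild-type sample 1 next. Gm20634, which overlaps Hist2h2aa1 on the same strand, was high in wild-type sample 1 alone, at 57.1 CPM against 4.34 to 9.45 CPM elsewhere. Whether reads moved between these 2 genes was not tested. The log2 fold change of Hist2h2aa1 was -0.10 ± 0.37 (edgeR adjusted p = 0.895), and 0.45 with the offsets. This gene made up the largest part of the H2A sum, which was 99.9 ± 27.4 CPM in wild type and 93.4 ± 38.0 in knockout. Without it the other 17 H2A genes summed to 19.0 ± 1.30 and 17.7 ± 3.45 CPM.

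Its near-identical partner Hist2h2aa2 showed the widest spread of any gene at this level. Its wild-type libraries held 3.96, 0.458 and 2.76 CPM and its knockout libraries 0, 1.82 and 6.54 CPM, that is 135, 18, 84, 0, 64 and 209 counts. With either strand searched, every 100-base window of Hist2h2aa1 is also held by Gm20633, and every one of Hist2h2aa2 by Gm20632. Those are antisense genes that cover the same positions. Gm20633 was read at 23.3 to 49.8 CPM in wild type and 10.2 to 29.4 CPM in knockout, and Gm20632 at 111 to 159 and 71.2 to 121 CPM. Reads of these pairs cannot be told apart here, because neither the strand setting nor the treatment of reads that fit several places is given in the sources used here. Summed, Hist2h2aa1 and Hist2h2aa2 had 83.3 ± 26.5 CPM in the wild-type and 78.5 ± 37.8 CPM in the knockout libraries.

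Hist2h2ac, an H2A gene of the same cluster that lies next to Hist2h2be, gave tighter values. It had 3.05, 2.54 and 3.55 CPM in wild type and 1.58, 1.64 and 1.75 CPM in knockout. The groups did not overlap. On the log2 scale, knockout differed by -0.88 ± 0.25 (edgeR adjusted p = 0.065), and -0.36 with the offsets. Hist3h2a, which shares its start with Trim17, held 8.37, 10.2 and 9.73 CPM in the wild-type libraries and 10.9, 9.72 and 9.51 CPM in the knockout libraries, with overlap. Its log2 fold change was 0.09 (adjusted p = 0.784), and -0.02 with the offsets. The counts of 17 of the 18 H2A genes share their position with a small RNA gene, none of which had more than 1 count in any library.

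Of the H2B genes, Hist1h2bp and Hist1h2bc separated the groups in opposite directions. Hist1h2bp (chr13:21787461-21789213, plus strand) had 43.0, 35.4 and 30.2 CPM in wild type and 15.4, 25.9 and 19.3 CPM in knockout. Every knockout library lay below every wild-type library. The log2 fold change was -0.84 ± 0.23 (edgeR adjusted p = 0.054), and -0.63 with the offsets. DESeq2 called it, with an adjusted p of 0.010. Its longest annotated coding transcript holds an AATAAA poly(A) signal within 50 bases of the end, as that of 13 of the 64 genes does. The stem-loop printed above for Hist1h2bp is from a shorter transcript, and the longest holds none.

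Hist1h2bc (chr13:23684199-23692908, plus strand) was, of the 32, the gene in which every knockout library was above every wild-type library. It had 5.55, 7.48 and 4.34 CPM in wild type and 12.2, 8.53 and 13.0 CPM in knockout. On the log2 scale, knockout differed by 0.95 ± 0.26 (edgeR adjusted p = 0.059), and 0.89 with the offsets. DESeq2 gave it an adjusted p of 0.0089. Its annotation carries 742 bases after the stop codon and no match to the stem-loop in the part searched. Hist2h2be, with 2192 annotated bases after the stop codon, had nearly level groups, with 19.6, 18.1 and 17.7 CPM in wild type and 20.5, 18.2 and 16.6 CPM in knockout, a difference of -0.0039 ± 0.16 on the log2 scale (adjusted p = 0.992), and -0.14 with the offsets.

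Over its 16 genes, H2B summed to 69.3 ± 9.61 CPM in the wild-type and 56.9 ± 2.64 CPM in the knockout libraries. Of the 12 that passed the filter, 10 had a log2 fold change below 0 (median -0.43, and -0.12 with the offsets). Hist1h2br was uneven within wild type, at 3, 71 and 4 counts against 40 to 46 in knockout. Its near copy Hist1h2bq ranged from 0.690 to 0.881 CPM in the wild-type libraries and from 0.462 to 0.657 CPM in the knockout libraries. Those 2 genes share 99.8% of Hist1h2br's 100-base windows.

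The H3 genes gave low and variable counts. Hist1h3a had 6.81, 5.42 and 3.78 CPM in wild type and 2.25, 2.52 and 4.60 CPM in knockout. Knockout sample 3 lay inside the wild-type range. The log2 fold change was -0.78 ± 0.34 (edgeR adjusted p = 0.182), and -0.29 with the offsets. Hist2h3c2, in the Hist2 cluster, had 3.14, 3.84 and 3.42 CPM and 3.91, 2.07 and 4.44 CPM, a log2 fold change of 0.0015 ± 0.31 (adjusted p = 0.998), and 0.49 with the offsets (adjusted p = 0.306). Its copy Hist2h3c1 was high in wild-type sample 1 alone, at 103 counts against 8 to 22 elsewhere. The overlapping transcript Gm20634 was also high in that library alone, at 57.1 CPM against 4.34 to 9.45 CPM. The class summed to 12.04 ± 3.19 CPM in the wild-type and 8.49 ± 3.005 CPM in the knockout libraries.

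Of the 5 classes, H4 had the lowest median log2 fold change. It was -0.94 over the 6 H4 genes that passed the filter, each of them below 0, and -0.63 with the offsets. Of the 6, Hist1h4b, Hist1h4i and Hist1h4k reached 10 counts in every wild-type library but not in every knockout library. The filter thus favoured values below 0, and the shared direction is a description only. Without a filter the median was -0.86 over all 13. Summed over the 13 H4 genes, wild-type libraries held 26.9, 22.01 and 18.8 CPM and knockout libraries 13.6, 15.9 and 17.7 CPM. The lowest wild-type value lay above the highest knockout value. With the offsets the log2 ratio of the group means moved from -0.52 to -0.20.

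Most of the H4 sum came from Hist1h4a (chr13:23760692-23761230, minus strand), at 20.4, 16.6 and 14.2 CPM in wild type and 11.3, 13.3 and 14.8 CPM in knockout. The groups overlapped, since knockout sample 3 was above wild-type sample 3. Its log2 fold change was -0.38 ± 0.20 (edgeR adjusted p = 0.259), and -0.04 with the offsets. Hist1h4h (chr13:23531050-23531519, plus strand) had 2.20, 1.96 and 1.28 CPM in wild type and 0.815, 0.822 and 0.469 CPM in knockout, with no overlap. Its log2 fold change was -1.36 ± 0.36 (adjusted p = 0.053), and -0.95 with the offsets. DESeq2 called it, with an adjusted p of 0.029.

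Hist1h4c was read at few counts, and of the 6 H4 genes it was the one least moved by the offsets. It had 32, 35 and 32 counts in wild type and 11, 11 and 15 in knockout. Its log2 fold change was -1.41 ± 0.38 (edgeR adjusted p = 0.056), and -1.42 with the offsets (adjusted p = 0.089). Its annotation holds 503 bases after the stop codon and a GC content of 48.4%. H4 proteins are the same for nearly all of these genes, and the DNA of several is alike as well. When Hist1h4a, Hist1h4b, Hist1h4h, Hist1h4j and Hist1h4k, which share exact 100-base windows, were summed before the fit, their log2 fold change was -0.49 (adjusted p = 0.153).

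**Figure D2:**
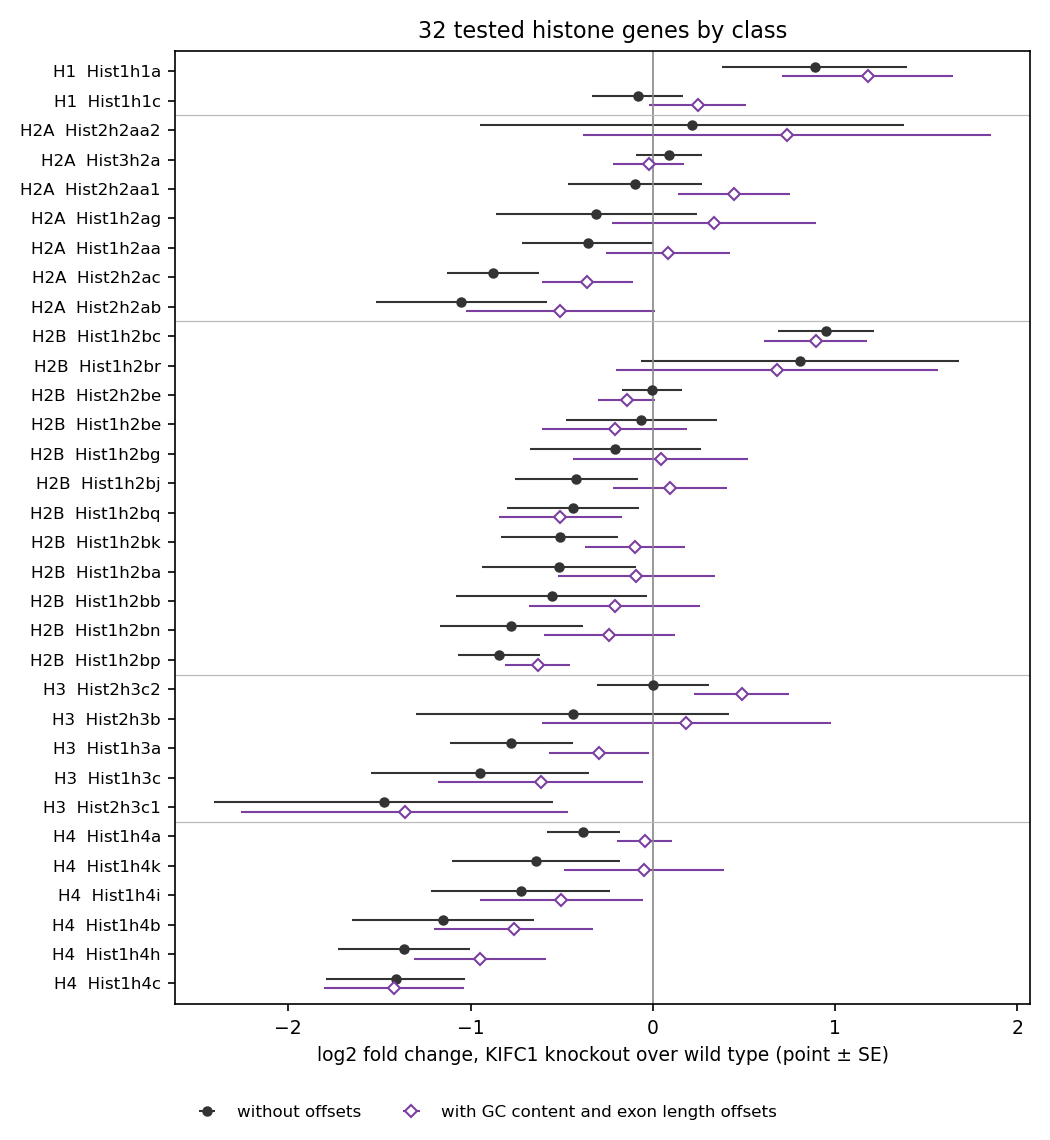
The log2 fold change, knockout over wild type, of the 32 histone genes that passed the filter, grouped by class, with bars of 1 SE. Filled circles are values without offsets and open diamonds values with offsets for GC content and exon length. All 6 H4 genes lie below 0 in both, and Hist1h2bc and Hist1h1a are at the upper end. Hist1h4b, Hist1h4i and Hist1h4k reached 10 counts in every library of wild type only, so that the filter favoured values below 0.

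Hist1h2aa and Hist1h2ba, which encode testis-specific H2A and H2B variants of spermatogenic cells, are neighbours that read away from each other. Their annotated starts are 305 bases apart (Hist1h2ba chr13:23933773-23934156, minus strand; Hist1h2aa chr13:23934462-23934851, plus strand). Hist1h2aa had 0.763, 0.992 and 1.12 CPM in wild type and 0.652, 0.624 and 0.970 CPM in knockout. Hist1h2ba had 1.70, 0.865 and 1.22 CPM in wild type and 1.25, 0.879 and 0.501 CPM in knockout. The groups overlapped for both genes. The log2 fold changes were -0.36 ± 0.36 (edgeR adjusted p = 0.564) and -0.51 ± 0.42 (adjusted p = 0.472), and 0.08 and -0.09 with the offsets.

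The 250 bases before the start of Hist1h2ba span much of the stretch between this pair, and are printed beside those of Hist1h2bp, the most abundant H2B gene per kilobase. Both are from RefSeq on GRCm38.p6, with matches on either strand in capitals. The strings searched were the TATA element TATAAA, the CCAAT box and, as the octamer that many H2B promoters carry, ATTTGCAT.
Hist1h2ba, chr13:23934157-23934406, minus strand: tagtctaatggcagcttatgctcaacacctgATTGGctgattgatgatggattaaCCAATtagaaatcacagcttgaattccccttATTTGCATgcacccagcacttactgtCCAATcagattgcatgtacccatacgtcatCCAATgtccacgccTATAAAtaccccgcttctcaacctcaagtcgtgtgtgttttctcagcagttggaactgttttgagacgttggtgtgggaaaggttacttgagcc
Hist1h2bp, chr13:21787238-21787487, plus strand: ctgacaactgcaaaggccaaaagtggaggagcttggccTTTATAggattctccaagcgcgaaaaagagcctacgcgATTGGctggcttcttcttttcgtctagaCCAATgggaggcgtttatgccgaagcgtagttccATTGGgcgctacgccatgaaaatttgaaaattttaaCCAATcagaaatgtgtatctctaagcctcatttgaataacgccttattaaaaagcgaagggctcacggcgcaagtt
Promoters of 250 bases before and 50 after the start were matched by symbol or synonym, chromosome and strand for 59 of the 64 genes, and 20 of these overlap another of them. TATAAA or its reverse complement occurred in 59.3% of them, against 14.1% of 26966 other genes. CCAAT in either direction occurred in 84.7% against 37.8%, and ATTTGCAT in 20.3% against 1.71%. By class, ATTTGCAT was held by 5 of the 14 H2B promoters, that of Hist1h2bp not among them, and by 7 of the 45 others. None of these strings contains another, though matches can overlap at their ends. A match is a description of the letters and not a site shown to be used.

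By position, the 51 Hist1 genes in the tables lie on chromosome 13 in 2 blocks. The first (chr13:21715763-22043676, 22 genes, Hist1h2bp among them) summed to 53.1, 44.7 and 37.4 CPM in wild type and 21.1, 32.7 and 27.8 CPM in knockout. The groups did not overlap. Most of each sum was Hist1h2bp alone, at 43.0, 35.4 and 30.2 CPM in wild type and 15.4, 25.9 and 19.3 CPM in knockout. The separation is thus not shown for the other genes of that block. The second (chr13:23531050-23934851, 29 genes, with Hist1h4a, Hist1h2bc and Hist1h1c) summed to 50.4, 45.9 and 37.9 CPM and to 38.5, 39.1 and 43.8 CPM, and the groups overlapped. The difference between the blocks was not tested. The 10 Hist2 genes (chr3:96219865-96270132), led by Hist2h2aa1, summed to 111 ± 24.7 and 104 ± 38.3 CPM.

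The genes were also divided by how far their annotation runs past the stop codon, a property of the gene models and not of the reads. Of the 64, 22 carried more than 200 annotated bases there and are called extended, and 42 did not. Extended genes summed to 50.4, 52.1 and 46.4 CPM in wild type and to 57.7, 50.8 and 52.7 CPM in knockout. The 42 short genes summed to 149.6, 186 and 148 CPM in wild type and to 119, 95.0 and 169 CPM in knockout, with overlap. The log2 ratio of their group means was -0.34, and 0.098 with the offsets, so that its sign changed. Without Hist2h2aa1 the ratio was -0.63, a value not computed with the offsets. The other 41 short genes summed to 96.2, 76.3 and 68.1 CPM in wild type and to 40.7, 55.7 and 59.1 CPM in knockout, with no overlap. The largest of these was Hist1h2bp, at 43.0, 35.4 and 30.2 CPM in wild type and 15.4, 25.9 and 19.3 CPM in knockout. Its own groups did not overlap, so the separation is not shown for the remaining short genes. The median log2 fold change was -0.06 for the 11 extended genes that passed the filter and -0.51 for the 21 short ones. With the offsets these medians were -0.14 and -0.09. Their median GC contents were 47.1% and 60.7%, so that annotation length and GC content cannot be told apart as dividing lines here.

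**Figure D3:**
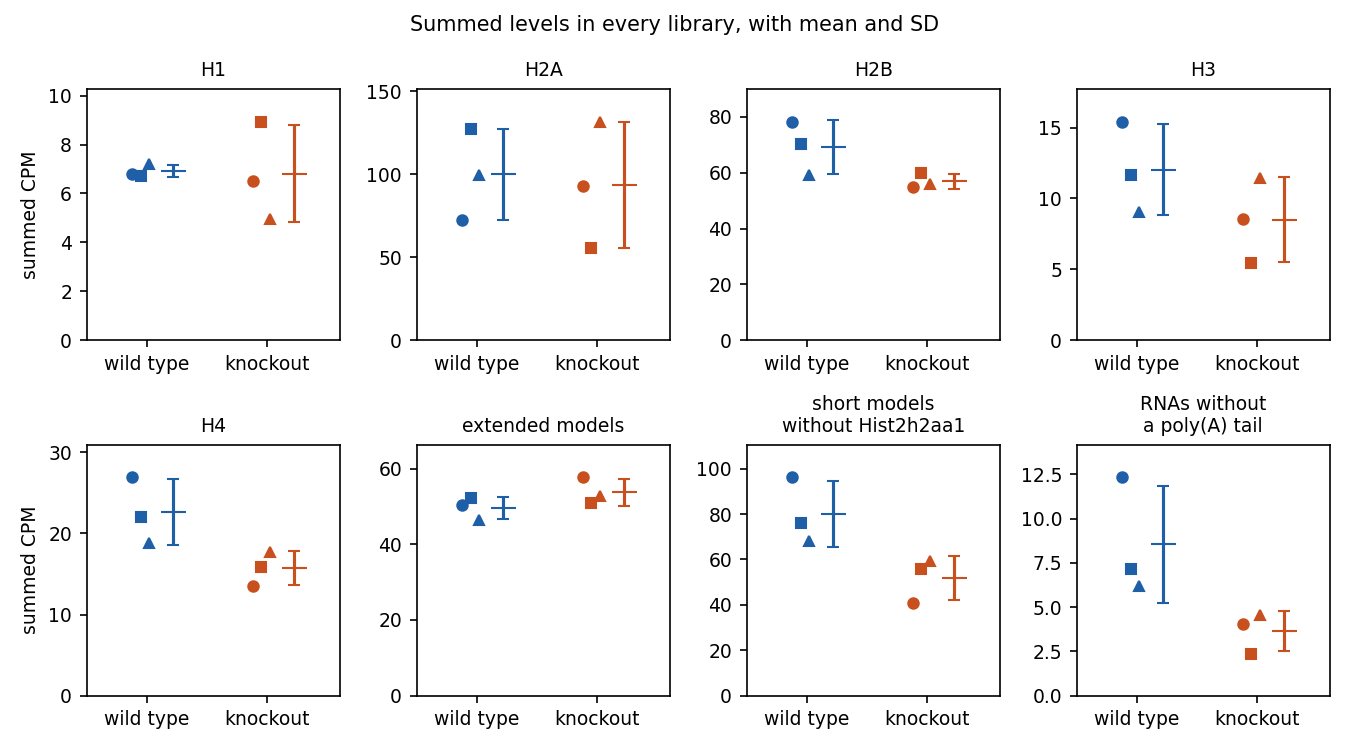
Summed CPM in every library for each histone class, for genes with extended and short annotation, and for 12 RNAs that carry no poly(A) tail. Points are libraries, blue for wild type and orange for knockout, with the mean and SD (n = 3) beside them and axes starting at 0. All sums are without the offsets. The groups do not overlap for H4, for short genes without Hist2h2aa1 and for the RNAs without a tail. Hist1h2bp, whose own groups do not overlap, is the largest part of the short sum without Hist2h2aa1.

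Across all tested genes the log2 fold change was lower at higher GC content, from a median of 0.44 in genes at or below 40% to -0.86 above 65%. Spearman's rho between the log2 fold change and GC content was -0.463 over 21467 genes, which are not independent replicates, and -0.209 over the 32 histone genes. In the band of 55% to 60% GC, 8 histone genes had a median of -0.53 and all 3378 genes a median of -0.37. In the band of 60% to 65%, 10 histone genes had a median of -0.39 and all 773 genes a median of -0.55.

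**Figure D4:**
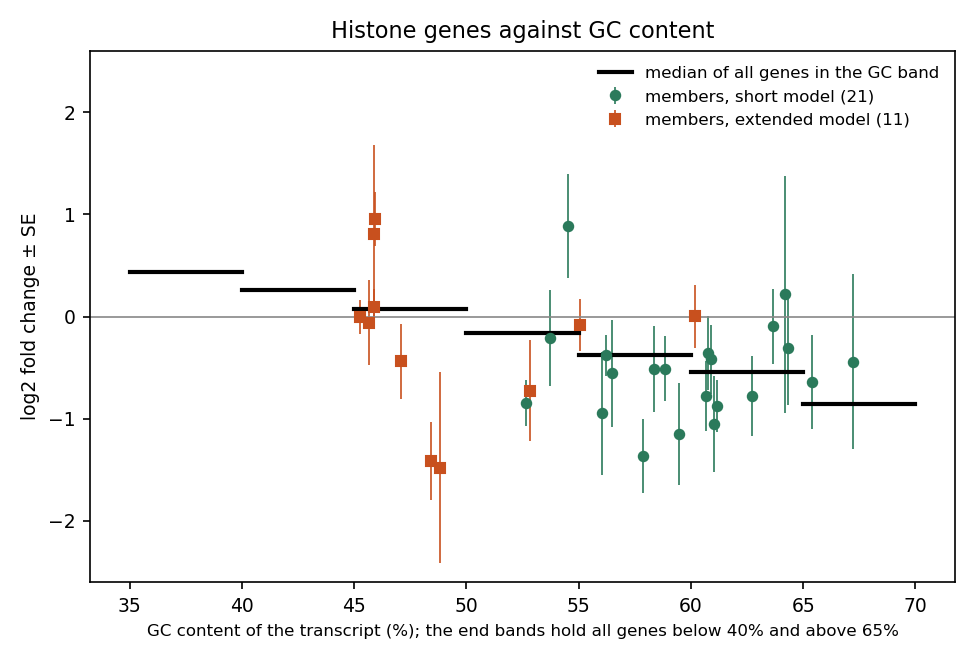
The log2 fold change of the 32 histone genes (bars are 1 SE) against the GC content of the transcript in percent. Black lines are medians of all tested genes in each GC band, which step down from 0.44 to -0.86. Histone genes with short annotation, in green, all lie above 50% GC and on both sides of the lines.

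The labels name an mRNA library kit. As a comparison, 12 other RNAs that carry no poly(A) tail were read in the same way. They summed to 12.3, 7.15 and 6.18 CPM in wild type and to 4.02, 2.35 and 4.54 CPM in knockout. Of the 3 that passed the filter, 2 fell, both signal recognition particle RNAs: Rn7s1 with a log2 fold change of -2.29 ± 0.43 (edgeR adjusted p = 0.021) and Rn7s2 with -2.41 ± 0.33 (adjusted p = 0.016). Those 2 are near-identical genes. With the offsets Rn7s1 was at -1.80 and not called (adjusted p = 0.063), and Rn7s2 was at -1.89 (adjusted p = 0.049). Rn7sk, the RNA that restrains the elongation factor P-TEFb, had a log2 fold change of -0.26 (adjusted p = 0.693). The part of these RNAs' shift in the histone values was not tested.

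Of 16 genes of histone transcription and mRNA 3' processing, all tested, 1 rose and 0 fell, with 2 higher and 5 lower at an unadjusted p under 0.05. The gene that rose was Npat, whose protein activates histone genes at the histone locus body, at 21.2, 24.4 and 24.4 CPM in wild type and 46.5, 33.2 and 37.7 CPM in knockout. Its log2 fold change was 0.74 ± 0.18 (edgeR adjusted p = 0.038), and 0.39 with the offsets, where it was not called (adjusted p = 0.233). Slbp, which encodes the stem-loop binding protein, had a log2 fold change of -0.05 (adjusted p = 0.846). Sympk, a scaffold of the cleavage complex and the most abundant of the 16, had -0.51 (adjusted p = 0.085). The median of the list was -0.02, and -0.15 with the offsets.

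Of 11 tested genes for histone variants whose mRNAs are polyadenylated, 1 fell and 0 rose. H2afz, which encodes H2A.Z and was the one called, had 155, 104 and 98.9 CPM in wild type and 51.7, 73.4 and 53.5 CPM in knockout. It fell by 1.003 on the log2 scale (SE 0.22, edgeR adjusted p = 0.031), and its value with the offsets was -1.001 (adjusted p = 0.051). H2afv, for the second H2A.Z form, had -0.75 (adjusted p = 0.051), and H3f3b, for the replacement histone H3.3, had -0.40 (adjusted p = 0.200). The list's median was -0.62, and -0.59 with the offsets. Of 10 testis variants outside the rule, 0 were called, 5 were lower and 1 higher at an unadjusted p under 0.05, and DESeq2 called 3 lower. They include the spermatid linker histones H1fnt (-0.53, adjusted p = 0.085) and Hils1 (-0.70, adjusted p = 0.052), and H2al2a (-0.90, adjusted p = 0.051). With the offsets these were at -0.07, -0.41 and -0.78. The list's median was -0.57, and -0.29 with the offsets.

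Of 26 genes of DNA replication and S phase, the phase in which canonical histones are made, 1 rose and 0 fell, with 2 higher and 2 lower at an unadjusted p under 0.05. The gene that rose was Ccne2, the cyclin that acts with CDK2 at entry into S phase, with a log2 fold change of 0.92 ± 0.21 (edgeR adjusted p = 0.034), and 0.40 with the offsets, where it was not called (adjusted p = 0.309). The other gene on the higher side was Mki67, a proliferation marker, at 0.87 (adjusted p = 0.089, and 0.016 by DESeq2), and 0.62 with the offsets. Mcm7, a subunit of the replicative helicase, had -0.49 (adjusted p = 0.066), and Chaf1a, of the CAF-1 chaperone, had -0.35 (adjusted p = 0.195). The median was -0.05, and -0.15 with the offsets. Of 18 histone chaperones and exchange factors, 1 rose. Nasp, a chaperone of H1, H3 and H4, had 569, 575 and 697 CPM in wild type and 991, 1064 and 824 CPM in knockout, a log2 fold change of 0.64 ± 0.16 (adjusted p = 0.043), and 0.17 with the offsets, where it was not called (adjusted p = 0.480). Npm1 had 0.54 (adjusted p = 0.054). The chaperone median was 0.09, and -0.0043 with the offsets.

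Calls among these companion genes rested on the set of libraries: 14 of 182 tested list genes were called with all 6 libraries, where 8.23% of all tested genes were. Between 0 and 37 were called when a library was left out, and 37 without knockout sample 2, where 14.3% of all genes were called. The counts at an unadjusted p under 0.05 stand beside 27.1% of all tested genes in edgeR.

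Markers of the cells that could hold histone mRNA were read beside these values. Spermatogonial markers had 1 fall (Sohlh1, -1.14, edgeR adjusted p = 0.042) and 0 rises among 14 tested, 3 being lower and 0 higher at an unadjusted p under 0.05, with summed levels of 953 to 1130 CPM in wild type and 702 to 2007 CPM in knockout. Most of that sum was a single gene, Dmrtb1, at 774 to 949.8 CPM and 556 to 1830.3 CPM, and the list's median log2 fold change was -0.07. Of 9 preleptotene and early meiotic markers tested, 0 were called by edgeR and 0 by DESeq2, with 1 lower at an unadjusted p under 0.05, and they summed to 397 to 439 CPM and 383 to 441 CPM. Pachytene markers had 1 rise (Mybl1) and 1 fall (Pou5f2) among 10, with sums of 6149 to 8489 CPM and 5259 to 6946 CPM. Spermatid markers had 3 falls and 0 rises among 15, with Tssk6 at -1.12 (adjusted p = 0.018), Prm1 at -0.66 and Tnp2 at -0.63 (adjusted p = 0.045 for both), and sums of 24292 to 26335 CPM and 17983 to 23388 CPM. With the offsets none of the 3 was called, and Tssk6, Prm1 and Tnp2 were at -0.45, -0.39 and -0.22. The spermatid markers did not all go 1 way: 5 were lower and 1 higher at an unadjusted p under 0.05 in edgeR. DESeq2 also called 5 lower and 1 higher. The median log2 fold change of that list was -0.27, and -0.14 with the offsets. The calls of Sohlh1 (-0.69), Mybl1 (0.20) and Pou5f2 (-0.74) ended with the offsets as well.

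Sertoli markers had 1 rise and 0 falls among 12, with 6 higher and 1 lower at an unadjusted p under 0.05, 3 higher by DESeq2, and sums of 1107 to 1488 CPM in wild type and 1450 to 2076 CPM in knockout. The gene that rose, Rhox8, was at 1.01 (edgeR adjusted p = 0.016), and 1.04 with the offsets (adjusted p = 0.042). Of the markers of Leydig (7), myoid (7), immune (12) and endothelial (7) cells, 0 were called by edgeR, with 3, 1, 1 and 1 higher at an unadjusted p under 0.05, and DESeq2 called 2, both of Leydig cells. Leydig markers summed to 610 to 1366 CPM and 1113 to 1707 CPM. Markers of epididymis and blood had 1 fall (Alas2, not called with the offsets) among 5 tested. Their sums were 58.0 to 101 CPM in wild type and 34.7 to 57.0 CPM in knockout. Of the epididymal genes, Lcn5 and Crisp1 were at 0 in every library, and Defb20 had 5 counts in wild-type sample 1 alone. Rnase10 was read in every library, at 5.23, 3.77 and 4.47 CPM in wild type and 2.34, 3.74 and 2.78 CPM in knockout. The part of these shifts in the histone values was not tested.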

How the data were processed

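RNA of whole testis was sequenced for 3 wild-type and 3 KIFC1 knockout samples, grouped by the labels. Per the labels' protocols, total RNA went into an mRNA library kit and onto a NovaSeq sequencer. Per the submitters' processing notes, the tools included Trimmomatic, HISAT2 and HTSeq, on mm10. For the annotation release, the strand setting and multi-mapping reads, the treatment is not given in the sources used here. The deposited files hold raw read counts per gene, not normalized by the authors, with 0 rows that name no gene.

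Symbols, exon lengths and GC content came from GENCODE M21, which matched 51633 of 51826 identifiers. Genotypes were compared by glmQLFTest of edgeR 4.0.16 under R 4.3.3, its quasi-likelihood F test, after TMM scaling and filterByExpr on all 6 samples, fitted to the whole table with two-sided Benjamini-Hochberg adjustment over 21518 genes, and genes under 0.05 were called. SE is the size of the fold change over the root of F. CPM values are TMM-scaled. Offsets for GC content and exon length were splines with 5 degrees of freedom per library, with 12751 genes over 2 in mean log2 CPM entering the fit. End length and the poly(A) signal were read on the longest coding transcript of a gene. The stem-loop of a histone gene was read on its longest coding transcript that held one. In the 17769 other genes only the longest coding transcript was searched. Sums and medians over the histone genes were described without a test. Samples within each group differed by more than sampling noise, with chi-square over its degrees of freedom between 15.4 and 135.

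The histone genes and the 16 companion lists were chosen with earlier results of these data known. Genes named were Kifc1, Hist1h2aa, Hist1h2ba, any histone gene called, the 10 with the highest mean CPM, and, at a mean of at least 1 CPM, the 3 with the largest rise and the 3 with the largest fall. In each list of histone-related genes or untailed RNAs the 2 with the smallest p and the most abundant were named, and in lists of cell markers only called genes. Other named genes were chosen after their values were seen. The test was also tested on simulated data, with changes placed in genes of higher counts. It called 21% of 100 genes changed 2-fold and 78% of 100 genes changed 4-fold. Of its 104 calls, 5 were unchanged genes. Most 2-fold changes were thus missed there. The data gave 1770 calls, so that the adjustment set a stricter cutoff on p in the simulation. Its rates are therefore not those of the test on the data. Alternatives were DESeq2 (1.42.0) size factors and Wald test, library size alone, other filters, the offsets, no mitochondrial genes, a replicate block, thinned libraries, each sample left out, and, added after seeing the data, near-identical genes summed.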

Additional observations from a re-analysis of the deposited data

How the results depend on the processing

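Kifc1 kept its direction and its call under every alternative (log2 fold change between -5.65 and -4.73). The count of called histone genes, 0 in the report, was 1 higher and 1 lower with the filter of 1 CPM in 3 samples, and 1 higher and 2 lower with the DESeq2 Wald test. It ranged from 0 to 1 higher and from 0 to 2 lower when a library was left out, and was above 0 there only without knockout sample 2. It stayed at 0 with near-identical genes summed, an alternative added after seeing the data. The median log2 fold change of the histone genes, -0.44, was -0.094 with offsets for GC content and exon length and -0.12 with offsets for GC content, and between -0.58 and -0.28 with a library left out. The log2 ratio of the summed level, -0.22, was 0.067 with GC offsets and 0.10 with GC and length offsets, and between -0.39 and -0.08 with a library left out. The cause of these moves was not tested. Of 14 called companion genes, the count was 8 without an expression filter, 30 with the DESeq2 Wald test, 2 with GC and length offsets, 0 with GC offsets, and 0 to 37 with a library left out.

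Over all genes, 1770 calls became 104 with GC and length offsets, 15 with GC offsets and 3210 with DESeq2, and between 1 and 3149 with a library left out. Same-numbered samples of the groups had deviations correlated at -0.473, -0.120 and -0.140 over 12761 genes. For unlike-numbered samples the correlations lay between -0.192 and 0.421. Deviations were taken from the mean of each group of 3, so these values do not show whether the samples were paired. With the replicate block, 0 companion genes and 21 genes in all were called, and the histone median was -0.48; with the replicate block and the offsets these were 0, 7 and -0.15.

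Of the named genes, those that changed sign were not called under any alternative. Hist1h1c was at 0.25, 0.19 and 0.20 with GC and length offsets, GC offsets, and the replicate block with offsets, and between -0.32 and 0.13 with a library left out. In the same order, Hist1h2aa was at 0.083, 0.12 and 0.099, Hist2h2aa1 at 0.45, 0.44 and 0.48, Hist3h2a at -0.022, -0.080 and -0.017, and Rn7sk at 0.065, 0.081 and 0.023. Hist2h2aa1 lay between -0.45 and 0.22, and Hist2h2aa2 between -1.38 and 0.83, with a library left out, and Hist2h2aa2 was at -0.023 with the replicate block. Hist2h2be was at 0.021 with DESeq2 size factors, 0.0035 without an expression filter, 0.0056 with the 1 CPM filter, 0.019 with the DESeq2 Wald test, 0.012 without mitochondrial genes, 0.0015 with libraries thinned to the smallest, and between -0.089 and 0.086 with a library left out. Hist2h3c2 was at -0.051 with library size alone, -0.057 with the replicate block, -0.010 with thinned libraries, and between -0.19 and 0.27 with a library left out. Depth limits these values, since 49 of the 64 histone genes had a mean under 1 CPM and 28 had at most 10 counts in every library.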
